A study of Arabidopsis thaliana with 12 samples.

Results

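The 10 genes described here form the core of the circadian clock of Arabidopsis thaliana: LHY (AT1G01060), CCA1 (AT2G46830), RVE8 (AT3G09600), PRR9 (AT2G46790), PRR7 (AT5G02810), PRR5 (AT5G24470), TOC1 (AT5G61380), GI (AT1G22770), ELF4 (AT2G40080) and LUX (AT3G46640, listed by RefSeq as PCL1). They were taken by gene identifier from gene count tables that list 35651 genes, and all 10 were found. PolyA RNA was sequenced from 14-day-old seedlings of 4 genotypes in the Col-0 ecotype, with 3 libraries each. These were h1.1 h1.2 cdca7a cdca7b (the quadruple mutant), which lacks 2 linker histone H1 genes and both CDCA7 genes, cdca7a cdca7b, which lacks only the CDCA7 genes, h1.1 h1.2, which lacks only the H1 genes, and Col-0, the wild type. CDCA7 proteins help the DNA methylation machinery reach nucleosomes, and H1 compacts chromatin. Each replicate was a single seedling according to the study's methods. By the study's methods these seedlings grew for 14 days in long days of 16 h of light and 8 h of dark. The labels name that regime for plants on soil and constant light for plants on plates, and the hour of harvest is not given in the sources used here.

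The plant clock is a loop of repressors and activators that take turns over the day. LHY and CCA1 are related MYB transcription factors that are made around dawn and repress genes of the evening. The PRR proteins then follow each other through the day and repress LHY and CCA1, with TOC1, the founding member of that family, acting in the evening. ELF4 and LUX form the evening complex together with ELF3, and GI, also made late in the day, acts with the light sensor ZTL. In light and dark cycles a seedling harvested near dawn is thus known for high LHY and CCA1 and for low TOC1, GI, ELF4 and LUX. Below, LHY, CCA1, RVE8 and PRR9 are called morning genes, PRR7 and PRR5 day genes, and GI, TOC1, LUX and ELF4 evening genes.

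Some facts of the whole series touch every value that follows. The titles of the samples and the names of their count tables give different genotypes for 9 of the 12 libraries. Tables of the libraries titled cdca7a cdca7b carry the name Col-0, tables of those titled h1.1 h1.2 carry the name cdca7a cdca7b, tables of those titled Col-0 carry the name h1.1 h1.2, and the quadruple mutant keeps its name in both. Genotypes below are those of the titles unless table names are mentioned. The tables held 25236235 to 43462077 reads per library, but only 1.56% to 2.38% of them were counted on a gene, which left 450869 to 833911 gene counts. In addition, the library titled h1.1 h1.2 replicate 1 stood apart. Its 4 shoot markers (RBCS1A, LHCB1.1, LHCB1.2 and LHCB1.3) summed to 12185 CPM (counts scaled to library size, 1 count being worth 1.05 to 2.19 CPM), against 192 to 1663 CPM in the other 11 libraries. The 7 root markers had 15 to 36 counts in each library, most of them on SCR, SHR and WOX5 (154, 58 and 54 over all libraries). COBL9 and EXPA7 had 2 each. The 3 flower markers had 0 counts, and the 2 seed markers had 0 to 125 per library. With a median of 69.4% of genes at 0 in a library, these counts do not decide whether the labelled tissue, seedling, is met.

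The strand on which reads were counted limits what a count of a clock gene can be read as. The libraries were made with a kit that keeps the strand of the RNA, and the strand setting of the counting is not given in the sources used here. Of the 34879 nuclear genes, 7144 (20.5%) shared exon bases with an annotated gene on the other strand, and these held 77.0% of all counts on nuclear genes. Among the 100 genes with the most counts, 92 had such a partner. LHCB3 (AT5G54270), which encodes an abundant light-harvesting protein, had 1625 counts over all libraries, while AT5G54280 on the other strand had 104415. PSAH-1 (AT3G16140), a photosystem I subunit, had 72 counts, and AT3G16130 on the other strand had 125604. A count given here for a clock gene is therefore the number of reads the tables assign to it and cannot be taken as the level of its mRNA.

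The evening element (AAAATATCT on either strand), through which LHY and CCA1 are known to repress evening genes and RVE8 to activate them, was looked for in the 500 bases before each annotated start. It was found before 3 of the 10 genes (TOC1, PRR5 and LUX) and before 4.47% of all 27071 protein-coding genes searched. The sites are shown because they mark which of the 10 genes carry this element within those 500 bases. Sequence beyond them was not searched, so a gene without a site here may carry one elsewhere. Each site is read on the strand of its gene, 5′ to 3′, with the element or its reverse complement in capitals (TAIR10.1).
TOC1, chr5:24674802-24674830, plus strand: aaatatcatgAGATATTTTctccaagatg
PRR5, chr5:8358820-8358848, minus strand: caattctactAGATATTTTttcaaatcca
PRR5, chr5:8358715-8358743, minus strand: gattttttctAGATATTTTcttttctcca
LUX, chr3:17182979-17183007, plus strand: tagaagatctAAAATATCTagctaactcg
The element began 53 bases before the LUX start at the nearest. The G-box (CACGTG) stood before 5 of the 10 genes (LHY, CCA1, PRR7, PRR9 and LUX) and before 9.38% of all. The related CCA1-binding site (AAAAATCT) stood before LHY, PRR5 and PRR9 and before 12.5% of all, and the LUX-binding site (GATTCG or GATACG) before TOC1, PRR9, ELF4 and LUX and before 22.6% of all. A match is a description of these letters only.

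The 10 genes together had 373 counts over the 12 libraries, and 157 of them (42.1%) came from the library titled h1.1 h1.2 replicate 1. A gene at 0 in a library could have had up to 3 counts, or 3.14 to 6.56 CPM, from counting error alone. By title, the summed counts were 80 in the quadruple mutant, 33 in cdca7a cdca7b, 204 in h1.1 h1.2 and 56 in Col-0.

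**Figure D1:**
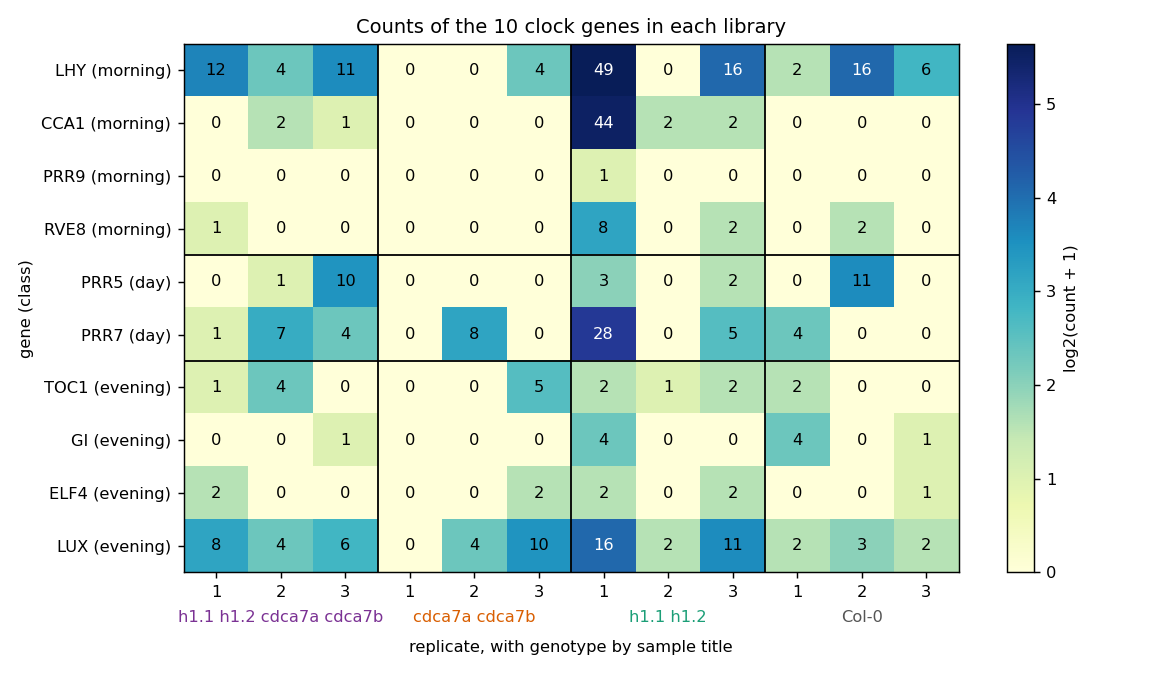
Counts of the 10 clock genes (rows, by class) in the 12 libraries (columns, by title and replicate), with the count printed in each cell and the colour showing log2(count + 1). The library titled h1.1 h1.2 replicate 1 holds the 49 counts of LHY and the 44 of CCA1, and the library titled cdca7a cdca7b replicate 1 has 0 for all 10 genes.

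LHY, on chromosome 1 (33365 to 37871, minus strand), was the clock gene with the most counts, 120 in all. It had 12, 4 and 11 counts in the quadruple mutant, 0, 0 and 4 in cdca7a cdca7b, 49, 0 and 16 in h1.1 h1.2, and 2, 16 and 6 in Col-0. In CPM the mean was 18.0 ± 8.53 in the quadruple mutant, 1.82 ± 3.16 in cdca7a cdca7b, 35.8 ± 42.7 in h1.1 h1.2 and 9.78 ± 6.85 in Col-0 (SD, n = 3 each). The quadruple mutant, with 8.75 CPM at the lowest, lay above cdca7a cdca7b, with 5.47 CPM at the highest. The 8.75 and 5.47 CPM were 4 counts each, so that the gap between them came from library size. Every other pair of genotypes overlapped. How many of all genes separate genotypes in this way was not counted, here or below. The 3 libraries titled h1.1 h1.2 covered both the highest LHY count of the series and a count of 0.

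CCA1, the partner of LHY (chromosome 2, 19245591 to 19248915, plus strand), had 51 counts, of which 44 (86.3%) were in the library titled h1.1 h1.2 replicate 1. The other libraries of that title had 2 each, the quadruple mutant 0, 2 and 1, and all 3 libraries of both cdca7a cdca7b and Col-0 had 0. LHY and CCA1 were thus both highest in the same library, but LHY was also seen in 8 others and CCA1 in 4 others.

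RVE8, a MYB-like activator of evening genes (chromosome 3, 2946239 to 2949017, plus strand), had 13 counts, with 1, 0 and 0 in the quadruple mutant, 0 in each cdca7a cdca7b library, 8, 0 and 2 in h1.1 h1.2, and 0, 2 and 0 in Col-0. PRR9, the earliest of the PRR repressors (chromosome 2, 19232607 to 19235179, plus strand), had 1 count in the whole series, again in the library titled h1.1 h1.2 replicate 1. Neither gene gives a comparison between genotypes at this depth.

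Of the day genes, PRR7 (chromosome 5, 637681 to 642030, minus strand) had 57 counts. There were 1, 7 and 4 in the quadruple mutant, 0, 8 and 0 in cdca7a cdca7b, 28, 0 and 5 in h1.1 h1.2, and 4, 0 and 0 in Col-0. The quadruple mutant was the only genotype in which all 3 libraries had a PRR7 count. PRR5 (chromosome 5, 8356204 to 8358546, minus strand) had 27 counts, with 0, 1 and 10 in the quadruple mutant, 0 in each cdca7a cdca7b library, 3, 0 and 2 in h1.1 h1.2, and 0, 11 and 0 in Col-0. For PRR5 the highest values were therefore in 1 quadruple mutant and 1 Col-0 library, and the genotypes overlapped.

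Of the evening genes, LUX, the DNA-binding member of the evening complex (chromosome 3, 17183042 to 17186959, plus strand), had 68 counts and was seen in 11 of 12 libraries, more than any other of the 10 genes. It had 8, 4 and 6 counts in the quadruple mutant, 0, 4 and 10 in cdca7a cdca7b, 16, 2 and 11 in h1.1 h1.2, and 2, 3 and 2 in Col-0. The means were 12.2 ± 4.33 CPM in the quadruple mutant, 7.20 ± 6.87 CPM in cdca7a cdca7b, 15.8 ± 11.7 CPM in h1.1 h1.2 and 3.13 ± 0.057 CPM in Col-0 (SD, n = 3 each). The quadruple mutant lay above Col-0 without overlap, with 8.75 CPM (4 counts) at the lowest. Col-0 had 3.18 CPM at the highest, a level of 2 to 3 counts. The lowest h1.1 h1.2 library, at 3.69 CPM, held 2 counts, no more than any Col-0 library. It thus lay above Col-0 through library size only.

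TOC1 (chromosome 5, 24674963 to 24678550, plus strand) had 17 counts, never more than 5 in a library, with 1, 4 and 0 in the quadruple mutant, 0, 0 and 5 in cdca7a cdca7b, 2, 1 and 2 in h1.1 h1.2, and 2, 0 and 0 in Col-0. GI (chromosome 1, 8061751 to 8067790, plus strand) had 10 counts, and ELF4, the small partner of LUX in the evening complex (chromosome 2, 16734294 to 16734953, minus strand), had 9. GI was at 0 in 8 libraries and had at most 4 counts in the others, and ELF4 was at 0 in 7 and had at most 2. The genotypes overlapped for all 3 genes.

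Per length, summed over all libraries, LHY came first with 35.1 counts per kilobase of exon, followed by CCA1 with 18.7, PRR7 with 17.6, LUX with 17.4, PRR5 with 16.1 and ELF4 with 14.5. TOC1 had 6.05, RVE8 5.54, GI 2.32 and PRR9 0.467 counts per kilobase. Without the library titled h1.1 h1.2 replicate 1, LHY still came first with 20.8 counts per kilobase, followed by PRR5 with 14.3, LUX with 13.3, ELF4 with 11.3, PRR7 with 8.97 and TOC1 with 5.34, and CCA1 stood at 2.57. Whether neighbours from CCA1 to ELF4 in the order over all libraries differ beyond the spread over libraries was not tested. Each of them but LUX was at 0 in 5 or more libraries. For 7 of the 10 genes the CPM peaked in the library titled h1.1 h1.2 replicate 1, which also held the highest CPM of 37.9% of the 23140 genes with any count. TOC1, PRR5 and ELF4 were highest in the quadruple mutant libraries 2, 3 and 1.

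The comparison of morning and evening genes describes how the counts divide between these classes in the libraries. A count cannot be taken as an mRNA level here, so the comparison does not decide whether libraries caught the clock at alike phases. Over all libraries the morning genes had 185 counts, the day genes 84 and the evening genes 104. The share of morning genes among morning and evening counts was 64.0% (95% exact Clopper-Pearson interval 58.2% to 69.6%), but 81.0% (73.0% to 87.4%, 102 of 126 counts) in the library titled h1.1 h1.2 replicate 1 and 50.9% (43.0% to 58.8%, 83 of 163 counts) in the other 11. These intervals cover counting error only, and not the spread between seedlings. In the 11 libraries LHY made up all but 12 of the 83 morning counts.

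The balance of both classes also varied within genotypes, least in the quadruple mutant. In Col-0 the morning genes had 2 of 10 counts (interval 2.52% to 55.6%) in replicate 1, while their share was 85.7% (63.7% to 97.0%, 21 counts) in replicate 2 and 60.0% (26.2% to 87.8%, 10 counts) in replicate 3, so that the intervals of replicates 1 and 2 did not overlap. In cdca7a cdca7b, replicate 1 had no count of either class, replicate 2 had 4 counts, all of the evening gene LUX, and replicate 3 had a morning share of 19.0% (5.45% to 41.9%, 21 counts). The quadruple mutant had shares of 54.2%, 42.9% and 63.2%. On the log2 scale, with 1 CPM added to each sum, morning over evening was 0.19 ± 0.56 in the quadruple mutant, -1.69 ± 1.59 in cdca7a cdca7b, 0.66 ± 1.29 in h1.1 h1.2 and 0.36 ± 1.99 in Col-0 (SD, n = 3 each), where the library with no counts enters as 0. The 2 cdca7a cdca7b libraries with counts were at -3.16 and -1.91, below those of the quadruple mutant (-0.39 to 0.73), h1.1 h1.2 (-0.48 to 2.06) and Col-0 (-1.71 to 2.26). The third had no counts of either class and thus no ratio, since its 0 comes from the added 1 CPM. The 2 libraries with counts rest on 4 and 21 counts, and -1.91 lay beside the -1.71 of Col-0 replicate 1. Their share intervals overlapped with that of Col-0 replicate 1, so these values do not separate the genotypes. No test is given for a score over chosen genes. By table names the -1.69 belongs to Col-0 and the 0.66 to cdca7a cdca7b. The share of these balances that goes with the hour of harvest was not tested.

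**Figure D2:**
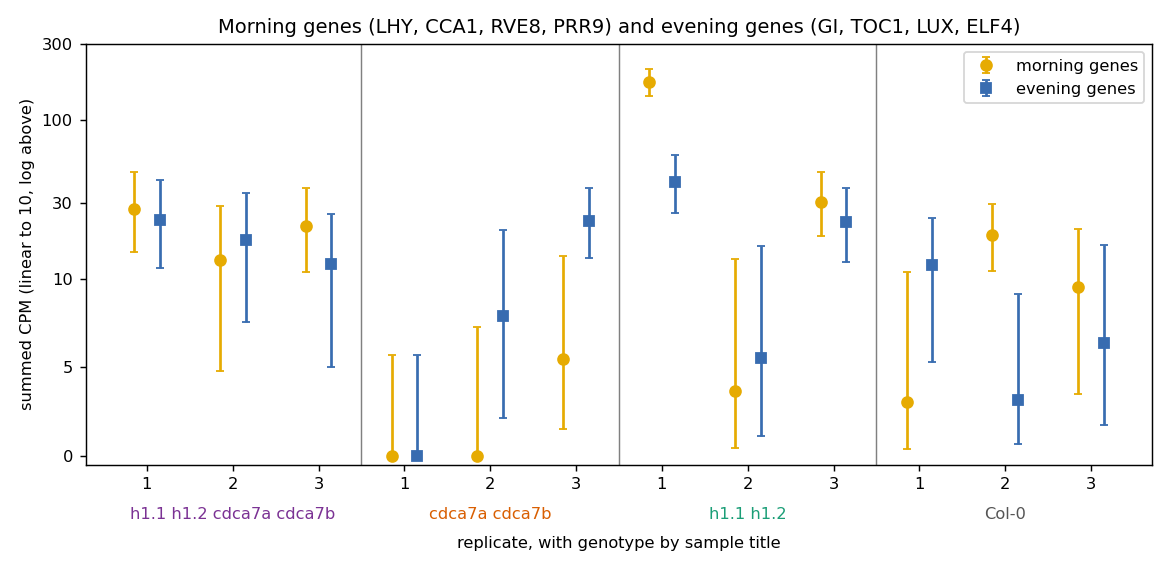
Summed CPM of the 4 morning genes (circles) and the 4 evening genes (squares) in each library, by title and replicate, with exact 95% Poisson intervals for counting error and an axis that is linear to 10 and logarithmic above. Morning genes had 102 counts against 24 of evening genes in the library titled h1.1 h1.2 replicate 1, and 18 against 3 in Col-0 replicate 2.

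Summed over the 10 genes, the quadruple mutant had 53.2, 48.1 and 59.0 CPM, cdca7a cdca7b 0, 23.8 and 28.7 CPM, h1.1 h1.2 266, 9.22 and 63.8 CPM, and Col-0 21.5, 33.5 and 15.9 CPM. In CPM the 3 quadruple mutant libraries lay close together and above all libraries titled cdca7a cdca7b and Col-0. In counts they had 25, 22 and 33, and the 32 of Col-0 replicate 2 lay among them. The separation from that library thus came through library size. The other libraries titled Col-0 or cdca7a cdca7b had at most 21 counts. The shoot markers of the quadruple mutant, at 392, 197 and 347 CPM, overlapped with the 251, 250 and 322 CPM of cdca7a cdca7b and the 302, 205 and 235 CPM of Col-0. No p-value is given for a sum over genes chosen as a list.

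Whether a genotype changed a single clock gene was tested with edgeR's quasi-likelihood test in a fit of all 12 libraries, where a call needed a Benjamini-Hochberg adjusted p under 0.05 and, for a comparison of genotypes, a log2 fold change of at least 1 in size. The filter on low counts kept 4461 genes, and only LHY and LUX of the 10 clock genes were among them. A gene can pass such a filter through the libraries in which it is high. Neither was called in any comparison, under titles or table names, and DESeq2 called neither under titles. At an unadjusted p under 0.05 there was 1 in each of 3 comparisons by title, LUX in h1.1 h1.2 against Col-0, LHY in the quadruple mutant against cdca7a cdca7b, and LHY in the test of any difference among the 4 sets of libraries, which does not depend on the naming. By table names it was LHY in the quadruple mutant against Col-0 and in cdca7a cdca7b against Col-0. At that unadjusted threshold stood, of all 4461 genes, 769 in h1.1 h1.2 against Col-0, 391 in the quadruple mutant against cdca7a cdca7b and 737 in the test of any difference by title, and 391 and 704 in the 2 comparisons by table names.

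The background of calls differed by comparison and is what these counts of 0 are to be read against. Of the 4461 genes tested, 4.57% were called in the test of any difference among the 4 sets. By title, 0.0448% were called in the quadruple mutant against Col-0, 0.426% in the quadruple mutant against cdca7a cdca7b, 0.426% in cdca7a cdca7b against Col-0 and 3.95% in h1.1 h1.2 against Col-0. The interaction, meaning how far losing H1 as well alters the effect of losing CDCA7, had 1.08%. By table names the shares were 0.426% for the quadruple mutant against Col-0, 0.336% for the quadruple mutant against cdca7a cdca7b, 2.17% for cdca7a cdca7b against Col-0, 0.426% for h1.1 h1.2 against Col-0 and 0% for the change of the CDCA7 effect. With 2 genes tested, a count of 0 lies within 1 gene of each of these shares.

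The log2 fold change of LHY was 0.83 (SE 1.097, adjusted p = 0.990) in the quadruple mutant against Col-0, 3.03 (SE 1.34, adjusted p = 0.528) in the quadruple mutant against cdca7a cdca7b, -2.20 (SE 1.35, adjusted p = 0.811) in cdca7a cdca7b against Col-0 and 1.81 (SE 1.06, adjusted p = 0.436) in h1.1 h1.2 against Col-0 (edgeR). That of LUX was 1.89 (SE 1.02, adjusted p = 0.948), 0.73 (SE 0.955, adjusted p = 0.903), 1.17 (SE 1.03, adjusted p = 0.917) and 2.28 (SE 0.997, adjusted p = 0.247) in the same comparisons and order (edgeR). With a library left out, LHY ran from 0.40 to 1.46 in the quadruple mutant against Col-0, the lowest without Col-0 replicate 1 and the highest without Col-0 replicate 2. It ran from 2.47 to 6.47 in the quadruple mutant against cdca7a cdca7b and from -5.65 to -1.54 in cdca7a cdca7b against Col-0, where 6.47 and -5.65 came without cdca7a cdca7b replicate 3, the only library of that title with LHY counts, and are no bounds. In h1.1 h1.2 against Col-0 LHY ran from 0.30, without h1.1 h1.2 replicate 1, to 2.40. LUX ran from 1.57 to 2.05 in the quadruple mutant against Col-0 and from 1.66 to 2.62 in h1.1 h1.2 against Col-0. It ran from 0.13 to 1.63 in the quadruple mutant against cdca7a cdca7b and from 0.24 to 1.74 in cdca7a cdca7b against Col-0, with the extremes without cdca7a cdca7b replicates 1 and 3. No direction turned in these fits. The naming decides even the sign for LHY in cdca7a cdca7b against Col-0, which was 4.01 (SE 1.301, adjusted p = 0.125) by table names, where the libraries titled h1.1 h1.2 are set against those titled cdca7a cdca7b. That last value passed the threshold in 1 of 12 fits with a library left out, at 4.45 (SE 1.02, adjusted p = 0.00972) without the library titled h1.1 h1.2 replicate 2, which had 0 LHY counts, and was 2.48 (adjusted p = 0.524) without replicate 1 of that title. Over these fits it ran up to 7.39, without the library titled cdca7a cdca7b replicate 3. The change of the CDCA7 effect without H1 was 1.21 (SE 1.67, adjusted p = 0.841) for LHY and -1.55 (SE 1.37, adjusted p = 0.733) for LUX by title (edgeR interaction term).

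**Figure D3:**
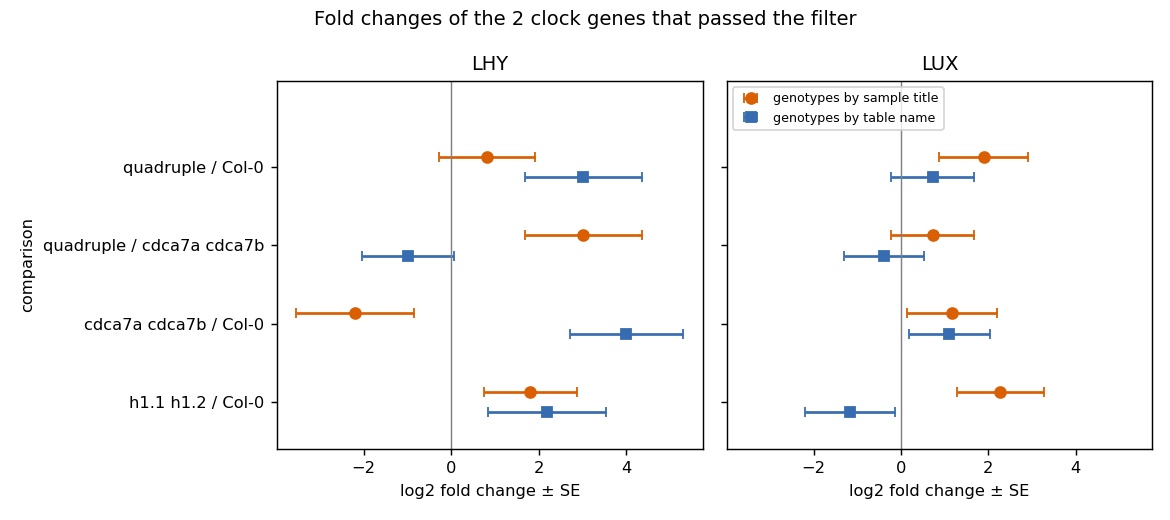
Log2 fold changes with their standard errors for LHY and LUX, by title (circles) and by table name (squares), in 4 comparisons of genotypes, each a first group over a second. LHY in cdca7a cdca7b over Col-0 lies at -2.20 by title and at 4.01 by table name, and no value passed the adjusted threshold.

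Without the filter, which lets genes with very few counts in, all 10 genes were among 23140 tested, and calls appeared that rest on 1 library. CCA1 was called in the test of any difference among the 4 sets (adjusted p = 0.000149), where 3.97% of genes were called, and in h1.1 h1.2 against Col-0, where 2.68% were, with a fitted log2 fold change of 6.76 (SE 1.73, adjusted p = 0.00581, edgeR). Since Col-0 had 0 CCA1 counts, that fitted value is no bound. Over the group, 48 counts in h1.1 h1.2 against at most 3 in Col-0 made CCA1 at least 19.99-fold higher in h1.1 h1.2. Such a bound covers counting error in Col-0 only, and not the spread between seedlings. Without the library titled h1.1 h1.2 replicate 1 the bound was 2.48-fold, from 4 counts, and the adjusted p was 0.853. By table names, where the libraries titled h1.1 h1.2 are set against those titled cdca7a cdca7b, LHY (3.68, SE 0.948, adjusted p = 0.00742) and CCA1 (adjusted p = 0.0100) were called in cdca7a cdca7b against Col-0, where 2.13% of genes were called (edgeR). LHY was also called in the test of any difference (adjusted p = 0.0326). Without that library none of the 9 genes that still had a count was called in any comparison under either naming. In the test of any difference LHY was then the only one with an unadjusted p under 0.05, at 0.0358 (edgeR, adjusted p = 0.756).

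LUX was the only one of the 10 genes with an annotated gene on the other strand. AT3G46650 (chromosome 3, 17185453 to 17187821, minus strand), which encodes a UDP-glycosyltransferase, overlaps 698 exon bases of LUX. It had 63, 50 and 96 counts in the quadruple mutant, 70, 82 and 62 in cdca7a cdca7b, 18, 41 and 63 in h1.1 h1.2, and 59, 76 and 53 in Col-0. With 733 counts in all it exceeded LUX, with 68, by 10.8 times, and it had more counts than LUX in every library. The library with the fewest AT3G46650 counts, titled h1.1 h1.2 replicate 1, was the one with the most LUX counts. AT3G46650 was not called in any comparison (adjusted p = 0.313 in the test of any difference, edgeR). Which of these reads came from LUX mRNA cannot be told apart from such a table.

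In a list of 47 other clock genes, clock outputs and light inputs, 15 had an annotated partner on the other strand. The partner had more counts for 10 of these and fewer for 5. These are not all separate pairs. AT1G69570 and AT1G69572 are both on the list and are each other's partner, so that this pair enters on both sides. CO and COL1 share the partner AT5G15845, which overlaps CO by only 5 bases. LKP2, a relative of the light sensor ZTL, had 22 counts and its partner AT2G18917, a long noncoding RNA, had 728. COL1, a relative of the flowering regulator CO, had 505 counts and the noncoding AT5G15845 across it had 17049. AT1G69570, which encodes a Dof-type transcription factor, had 1034 counts, and the noncoding AT1G69572 across it had 2660. The other way round, COL2, another relative of CO, had 1390 counts and its partners AT3G02370 and AT3G02390 had 0 and 5.

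**Figure D4:**
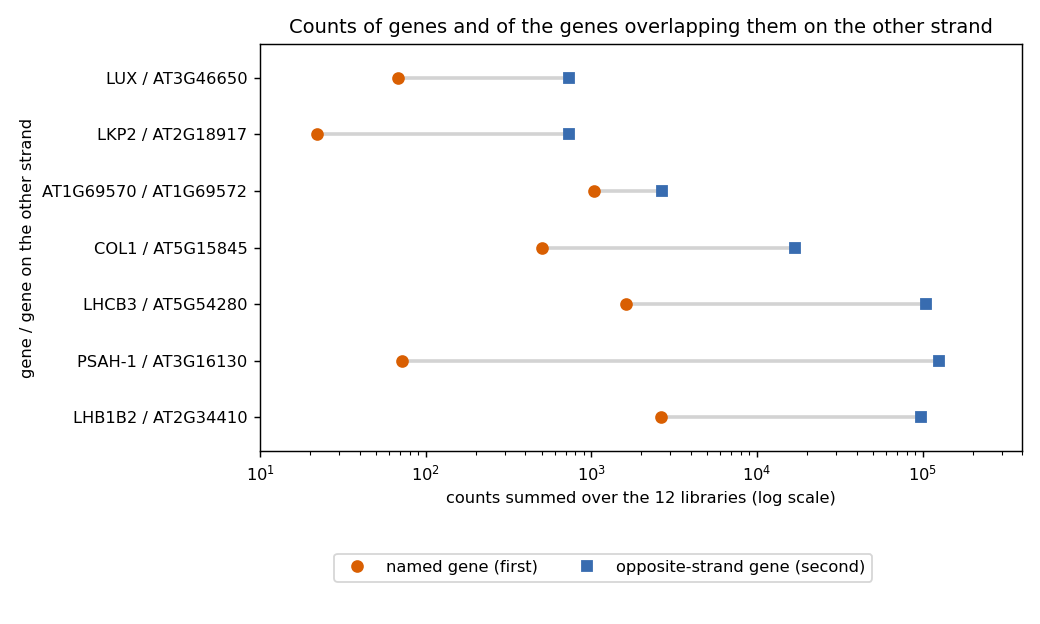
Counts summed over the 12 libraries, on a logarithmic axis, for 4 genes of the clock lists and 3 photosynthesis genes (circles), and for the gene that overlaps each on the other strand (squares). In all 7 pairs, which were picked after their values were seen, the partner has more counts, 733 against 68 for LUX and 125604 against 72 for PSAH-1.

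Of the 47 other genes, 43 had a count and 13 passed the filter. In the test of any difference among the 4 sets 1 of the 13 was called, against a background of 4.57%. This was GRP7 (AT2G21660), a glycine-rich RNA-binding protein driven by the clock (adjusted p = 0.0298, edgeR). GRP7 had 8, 8 and 9 counts in the quadruple mutant, 1, 6 and 4 in cdca7a cdca7b, 82, 17 and 19 in h1.1 h1.2, and 13, 11 and 4 in Col-0. All 3 libraries titled h1.1 h1.2 lay above all others in CPM, at 28.9 and more. By title its log2 fold change in h1.1 h1.2 against Col-0 was 2.38 (SE 0.685, adjusted p = 0.0634, edgeR), and by table names it was called in cdca7a cdca7b against Col-0 at 3.42 (SE 0.756, adjusted p = 0.0354, edgeR). None of the 13 was called in the other comparisons by either naming. Without the filter GRP7 was also called in the test of any difference (adjusted p = 0.00126, edgeR). It was not called in any comparison without both the filter and the library titled h1.1 h1.2 replicate 1, which held its 82 counts.

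Without the filter, 5 of the 43 were called in the test of any difference (AT1G69572, GRP7, LNK2, CAT2 and GRP8), against a background of 3.97%. When the library titled h1.1 h1.2 replicate 1 was left out as well, 3 of 42 were called (AT1G69572, CAT2 and GRP8), against a background of 1.35%. LNK2 (AT3G54500) had 67 of its 118 counts in that library. With it kept, LNK2 was also called in h1.1 h1.2 against Col-0 by title, where 2.68% of genes were (2.96, SE 0.860, adjusted p = 0.0260, edgeR). CAT3 (AT1G20620) was called only in cdca7a cdca7b against Col-0 by table names, where 2.13% were (3.42, SE 0.962, adjusted p = 0.0221, edgeR). GRP8 (AT4G39260), the close relative of GRP7, had 1, 4 and 4 counts in the quadruple mutant, 6, 4 and 3 in cdca7a cdca7b, 92, 2 and 25 in h1.1 h1.2, and 0 in each Col-0 library. With 3 counts over the group in place of 0 in Col-0, the pooled h1.1 h1.2 counts were at least 49.6-fold higher. Without replicate 1 they were at least 16.8-fold higher, where 25 of the 27 counts left came from replicate 3 alone. These bounds cover counting error in Col-0 only, and not the spread between seedlings. CAT2 (AT4G35090), a catalase with a daily rhythm, had 14.9, 10.9 and 21.5 CPM in the quadruple mutant, 38.6, 73.3 and 80.7 CPM in cdca7a cdca7b, 268, 20.3 and 62.3 CPM in h1.1 h1.2, and 35.2, 10.5 and 3.18 CPM in Col-0. Its quadruple mutant libraries lay below those of cdca7a cdca7b without overlap (log2 fold change -2.06, SE 0.537, adjusted p = 0.0260, without the filter and that library, edgeR; adjusted p = 0.492 with both).

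AT1G69572 had 309, 398 and 181 CPM in the quadruple mutant, 563, 612 and 676 CPM in cdca7a cdca7b, 388, 197 and 143 CPM in h1.1 h1.2, and 388, 187 and 321 CPM in Col-0. The 3 libraries titled cdca7a cdca7b lay above the 9 others. The log2 fold change in cdca7a cdca7b against Col-0 was 1.05 both with the filter (SE 0.357, adjusted p = 0.403) and without the filter and the library titled h1.1 h1.2 replicate 1 (SE 0.258, adjusted p = 0.0167, edgeR). By table names those 3 libraries are Col-0, and the same comparison without the filter was -1.60 (SE 0.295, adjusted p = 1.09e-05, edgeR).

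Over the 12 libraries, the genes whose log2(CPM + 1) followed LHY most closely among the 4460 others that passed the filter were AT4G13870 (WRNEXO, Pearson r = 0.92), AT3G05060 (0.86) and AT5G47740 (0.85). For LUX they were AT5G16150 (PGLCT, 0.91), AT2G02160 (0.90) and AT2G33800 (EMB3113, 0.89). These values are descriptions over libraries that include the one that stands apart, and 5 of the 6 genes had their highest count, or tied for it, in that library.

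The 2 libraries with the most clock gene counts also had the most shoot marker counts. The library with the most clock counts, titled h1.1 h1.2 replicate 1, also had the most shoot marker counts, 7193 against 90 to 1095 in the other 11, and replicate 3 of that title came second in both, with 63.8 CPM over the 10 genes. The other 10 libraries showed no such order, with 48.1 CPM of clock genes at 197 CPM of shoot markers in quadruple mutant replicate 2, 0 CPM at 251 CPM in cdca7a cdca7b replicate 1 and 21.5 CPM at 302 CPM in Col-0 replicate 1. The defining shoot markers were present in all libraries. All 4 were called in h1.1 h1.2 against Col-0 (log2 fold changes 4.03 to 4.63, edgeR) with the filter. In that comparison 3.95% of the genes tested were called. The markers summed to 12185, 192 and 1663 CPM in h1.1 h1.2 replicates 1, 2 and 3, which are cdca7a cdca7b by table names. Replicate 2 thus lay below every Col-0 library, at 302, 205 and 235 CPM. In the library titled h1.1 h1.2 replicate 1, LHCB3 had 8.76 counts for every 100 of AT5G54280 across it, against 0.414 to 1.70 in the other 11. Their part in the clock counts was not tested.

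**Figure D5:**
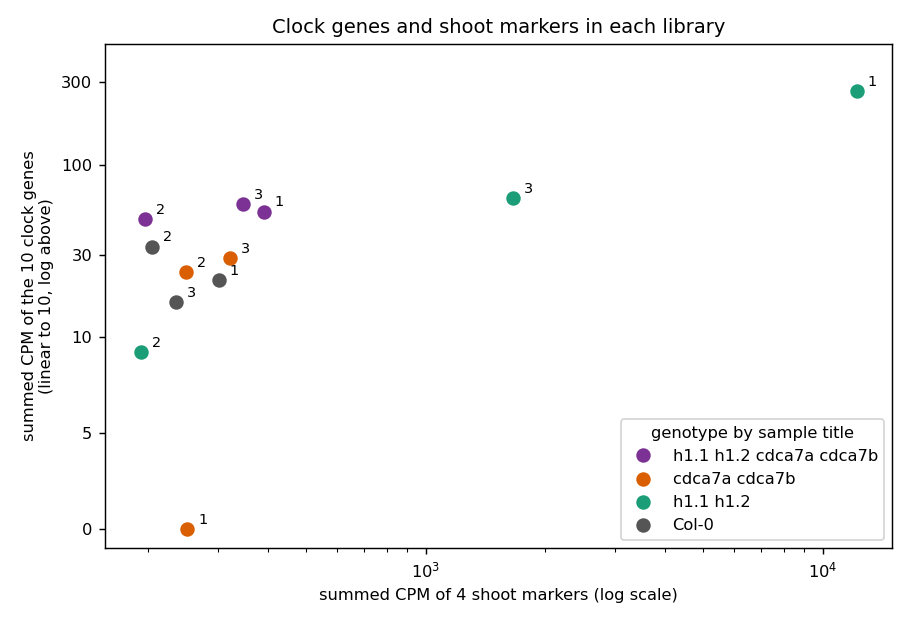
Summed CPM of the 10 clock genes (linear to 10, logarithmic above) against summed CPM of 4 shoot markers (logarithmic) in each of the 12 libraries, coloured by title and numbered by replicate. The library titled h1.1 h1.2 replicate 1 stands alone at 266 CPM of clock genes and 12185 CPM of shoot markers, and the 3 quadruple mutant libraries sit between 48.1 and 59.0 CPM of clock genes.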

How the data were processed

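Per the labels, TruSeq Stranded mRNA libraries were made from 500 ng of RNA. The authors trimmed the reads (Trim Galore 0.6.7), aligned them to TAIR10 (STAR 2.7.11a), and deposited raw HTSeq (0.13.5) counts per gene, without normalization. The strand option is not given in the sources used here. The 5 summary lines of each table, which hold 97.6% to 98.4% of the reads as without a feature, stayed out of library sizes and tests. Transposon tables were not used. Genotypes were taken from sample titles, and again from table names.

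The test was edgeR's quasi-likelihood test (version 4.0.16, R 4.3.3; glmQLFit and glmQLFTest, TMM, filterByExpr, group means of all 12 libraries, Benjamini-Hochberg over 4461 genes), CPM used TMM-scaled library sizes, and standard errors came from the fold change and its F statistic. On simulated data with 200 changed genes for cdca7a cdca7b against Col-0, 54% of them were recovered with 8 false calls among 4461 genes. The planted changes were of mixed size, the smallest at the fold cutoff, in genes drawn at random from those that passed the filter. The 54% is therefore no measure of recovery for the clock genes. Alternatives were the other naming, DESeq2 1.42.0 (also its size factors alone), no filter, a replicate block, library sizes without organelle genes, no fold cutoff, only the libraries compared, and each library left out. Gene positions, opposite-strand partners and sequences came from RefSeq (TAIR10.1), Python 3.11.15, pandas 2.3.3, scipy 1.17.1 and matplotlib 3.10.9 did the rest. All 10 members, any opposite-strand partner of a member, genes called from the list of 47 (at most 5 per comparison by size of change), and the 3 genes most like each member that passed the filter were named, and photosynthesis gene pairs and opposite-strand partners in the wider list were added after their values were seen. The members and lists were chosen with earlier results of these data known. Nothing but the replicate number and the study's methods says how seedlings relate, and p-values measure the spread between these libraries.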

Additional observations from a re-analysis of the deposited data

How the results depend on the processing

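No clock gene was called in any comparison by title under any alternative but 2. Without the filter 2 were called in the test of any difference among the 4 sets (2 also by table names), 1 in h1.1 h1.2 against Col-0, and 2 in cdca7a cdca7b against Col-0 by table names. Without the library titled h1.1 h1.2 replicate 2, 1 (LHY) was called in the test of any difference, so that its counts over the libraries left out ran from 0 to 1, as did those in cdca7a cdca7b against Col-0 by table names. Of the 10 genes, 8 had at least 10 summed counts, against 2 that passed the filter.

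Counts over all genes moved more. The test of any difference called 204 genes, 363 with DESeq2, 918 without the filter, 108 with the replicate number as a block, and 81 to 684 with a library left out, the lowest without h1.1 h1.2 replicate 1 and the highest without its replicate 2. Calls in h1.1 h1.2 against Col-0 were 176, 322 with DESeq2, 620 without the filter, 29 with only the libraries compared, 19 by table names and 11 to 672 with a library left out. Those in cdca7a cdca7b against Col-0 were 19, 40 with DESeq2, 55 without the filter, 97 by table names and 4 to 28. Those in the quadruple mutant against Col-0 were 2, 38 without the filter, 1 with only the libraries compared, 1 with the replicate block, 19 by table names and 0 to 2, and against cdca7a cdca7b 19, 43 with DESeq2, 94 without the filter, 30 with only the libraries compared and 7 to 29. The change of the CDCA7 effect had 48, 119 with DESeq2, 253 without the filter, 0 by table names and 18 to 198. The cause was not tested. The block changed no call of a clock gene. Deviations of log2 CPM from the mean of each genotype were compared between same-numbered libraries of different genotypes. They correlated at -0.139 to 0.158 (2 of 18 correlations over 0.1), so that equal numbers did not count as pairing.

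With a replicate left out, the log2 morning over evening ratio ran from -0.08 to 0.48 in the quadruple mutant, from -2.53 to -0.95 in cdca7a cdca7b, from -0.04 to 1.23 in h1.1 h1.2 and from -0.59 to 1.39 in Col-0. By table names it was 0.66 in cdca7a cdca7b and -1.69 in Col-0.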

Other observations

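Seed storage genes, which belong in no comparison above, stood out in 1 quadruple mutant library. Replicate 3 had 125 counts on the 2 seed markers, 116 of them on CRU3, a cruciferin of the seed, against 0 to 6 in the 11 other libraries. Its 10 clock genes summed to 59.0 CPM, beside 53.2 and 48.1 CPM in the other quadruple mutant libraries. The noncoding AT5G15845, which lies across COL1 and shares only 5 bases with CO, was the most counted of the named clock-linked loci. It had 2862, 2048 and 2705 CPM in the quadruple mutant, 3109, 2861 and 2285 CPM in cdca7a cdca7b, 3420, 2588 and 2061 CPM in h1.1 h1.2, and 1939, 1203 and 1481 CPM in Col-0. The 3 libraries titled Col-0 (tables named h1.1 h1.2) lay below the 9 others, a pattern chosen after its values were seen. In the test of any difference its adjusted p was 0.109 with the filter, 0.0727 without it, and 0.0209 without the filter and the library titled h1.1 h1.2 replicate 1 (edgeR).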
